A study of Homo sapiens and Mus musculus with 7 samples.

Results

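The BCL2 family genes described here were 10 genes that decide whether mitochondria release the proteins that start cell death: BCL2, BCL2L1, BCL2L2, MCL1, BAX, BAK1, BCL2L11, BMF, PMAIP1 and BID. They were chosen by name, and each was read through every probe set (a group of short probes on the array for one transcript) annotated with that symbol and no other. The human arrays held 32 such probe sets for 10 of the 10 genes, among 41091 probe sets with 1 symbol. The mouse arrays held 33 probe sets for 9 of the 10 genes, among 34945. No mouse probe set carried Bax as its only symbol, so Bax was not analysed here in mouse liver. All members together were 10 of 24329 genes in the series.

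The study set samples lacking or depleted of Fas (CD95), the receptor through which Fas ligand starts apoptosis, against their controls. Total RNA of 7 samples, prepared with a Qiagen miRNeasy kit, was hybridised to Affymetrix arrays. HeyA8, an established human ovarian cancer cell line, gave 3 arrays: a control named PLKO (pLKO is a lentiviral vector for hairpin RNAs), and stable knockdown of FAS by either of the hairpins shRNA4 and shRNA6. HepG2, an established human liver cancer line, gave 2 arrays, a PLKO control and shRNA6. Liver of male C57/BL6 mice aged 2 months gave 2 arrays, 1 wild type and 1 Fas knockout. The labels call the hairpin lines both knock-down and knock-out, and do not say which Fas allele the mouse carried, whether the cell lines were clones or whether animals were pooled. Each of the 7 groups had 1 array, so a difference between an array and its control has no replicate check, and p-values from the human arrays fitted together measure only the spread between these samples.

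FAS itself was read first, on its brightest probe set, 204780_s_at. The HeyA8 control array read 2104, the shRNA4 array 1184 and the shRNA6 array 856, while the HepG2 control and shRNA6 arrays read 1087 and 631. Mouse Fas was 560 in wild type and 169 in the knockout. This probe set was lower than the control on every knockdown or knockout array, and remained well above the array medians, which lay between 57.8 and 63.4 on the human arrays and were 79.9 and 75.2 on the mouse arrays. The summed signal of hepatocyte markers was 168179 and 177561 on the HepG2 arrays, against 116 to 258 on the HeyA8 arrays. Of 9 ovarian markers 4 were called higher in HeyA8 and 2 higher in HepG2: PAX8 read 2860 to 3047 in HeyA8 against 593 and 604, but EPCAM read 281 to 619 against 10621 and 11281. Among the 4, MSLN was below the median on both HepG2 arrays and kept only through HeyA8, so its call carries no weight. Over all genes, with 1 probe set each, 57.7% were called between the lines. MUC16 was not above the median on any array.

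BCL2 family proteins share short BCL2 homology (BH) regions and meet on the outer mitochondrial membrane. BCL2, BCL-XL (BCL2L1), BCL-W (BCL2L2) and MCL1 are protective: they bind and hold back the death-promoting members. BAX and BAK (BAK1) are effectors, which form the pores that let cytochrome c out. BIM (BCL2L11), BMF, NOXA (PMAIP1) and BID are BH3-only proteins, which sense damage or stress and shift that balance towards death. BID links Fas to mitochondria: caspase-8, activated at the receptor, cuts BID, and the cut form activates BAX and BAK. Hepatocytes are cells in which Fas-driven death is known to need this step, and MCL1 and BCL-XL are known to keep hepatocytes alive.

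RefSeq promoters of build GRCh38.p14 were matched for 8 of the 10 members. MCL1 and BCL2L2 were not matched. The 250 bases before the outermost listed start are printed for BCL2L11 and BCL2L1, whose differences were the largest among members higher in HepG2, and for BID, which was higher in HeyA8 and joins Fas to the family. Capitals mark matches to the searched motifs on either strand: the GC box GGGCGG, the ETS core CGGAAG, the AP-1 site TGANTCA, the CRE core TGACGT and the FOXO site GTAAACA. Each sequence reads 5′ to 3′ along the gene's strand.
BCL2L11, chr2:111120664-111120913, plus strand: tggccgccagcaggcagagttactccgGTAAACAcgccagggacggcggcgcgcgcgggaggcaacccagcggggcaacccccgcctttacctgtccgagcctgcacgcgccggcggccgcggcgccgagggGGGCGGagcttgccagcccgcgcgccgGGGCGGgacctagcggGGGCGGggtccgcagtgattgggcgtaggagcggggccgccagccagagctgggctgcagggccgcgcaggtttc
BCL2L1, chr20:31723964-31724213, minus strand: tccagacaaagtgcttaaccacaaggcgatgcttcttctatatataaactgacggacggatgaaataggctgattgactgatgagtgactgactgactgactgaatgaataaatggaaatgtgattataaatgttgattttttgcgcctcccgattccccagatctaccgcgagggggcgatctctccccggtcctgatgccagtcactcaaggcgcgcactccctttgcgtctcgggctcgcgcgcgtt
BID, chr22:17774666-17774915, minus strand: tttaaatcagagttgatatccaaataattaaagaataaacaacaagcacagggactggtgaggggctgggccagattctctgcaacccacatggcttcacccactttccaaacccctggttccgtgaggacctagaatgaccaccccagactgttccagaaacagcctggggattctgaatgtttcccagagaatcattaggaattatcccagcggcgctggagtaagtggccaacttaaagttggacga
The windows differ in composition: G and C made up 76.8% of the BCL2L11 window, 50% of the BCL2L1 window and 47.6% of the BID window. The BCL2L11 window held 3 GC boxes and 1 FOXO site, and the other printed windows held none of the 5 motifs. Among 34788 promoter windows of this length, 42.6% held a GC box and 2.98% a FOXO site, while 16.5% held an ETS core, 7.09% a CRE core and 6.59% an AP-1 site. BCL2L1 has 2 listed starts and BID 5, so other starts of these genes have other windows. Such matches describe letters only and say nothing of binding.

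Most of the family's probe sets differed between the cell lines. PMAIP1, MCL1 and BID were higher in HeyA8, and BCL2L11 and BCL2L1 were higher in HepG2. BAX and BAK1, the pore formers, did not pass the test between the lines. These differences were estimated by limma from all 5 human arrays, with cell line and knockdown as terms, and are given as HepG2 minus HeyA8 on the log2(signal + 12.6) scale with standard errors and Benjamini-Hochberg adjusted p-values. In HeyA8 the arrays are 3 and in HepG2 2, and the error rests on the difference between the HeyA8 hairpins and on the difference in knockdown effect between the lines. Of the 32 probe sets 30 were above the median of at least 1 array and entered the fit. Of these, 21 passed an adjusted p of 0.05, 10 higher in HepG2 and 11 higher in HeyA8. Over all 34288 probe sets in the fit 49.7% were called, 25.1% higher in HepG2 and 24.5% higher in HeyA8. The arrays of the lines did not overlap for 24 of the 30, against 67.9% of all probe sets. Counting only the 28 probe sets above the median in both lines, 20 were called. The share over all probe sets above the median in both lines is not given here, so this count has no background to be set against. The median size of the difference was 1.13 for the members and 0.651 for all probe sets. The count rests partly on genes with many probe sets: with 1 probe set per gene, 7 of 9 members were called, against 57.7% of all genes.

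**Figure D1:**
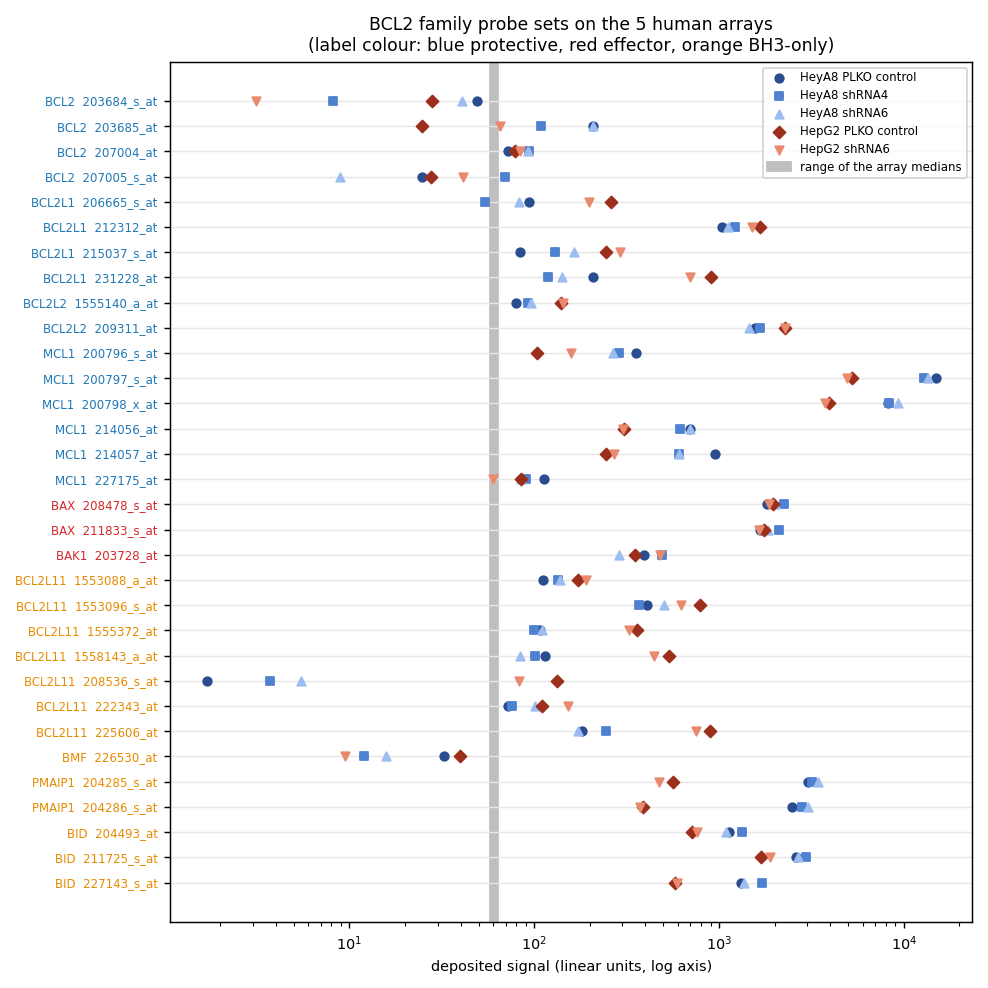
Deposited signal (linear units on a log axis) of all 32 BCL2 family probe sets on the 5 human arrays, 1 point per array, with the range of the array medians as a grey band. The HeyA8 and HepG2 points of PMAIP1 are widely apart, those of BAX lie on top of each other, and the only BMF probe set lies left of the band on every array.

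Among the protective genes, MCL1, a short-lived protein that blocks BAK and BIM, was higher in HeyA8 on 5 of its 6 probe sets. Its brightest probe set, 200797_s_at, read 14934, 12837 and 13508 on the HeyA8 control, shRNA4 and shRNA6 arrays and 5257 and 4923 on the HepG2 control and shRNA6 arrays. The lines did not overlap, and the HeyA8 mean was 2.70 times the HepG2 mean, a log2 difference of -1.45 ± 0.09 (SE, adjusted p = 2.14e-06, limma). Probe set 200798_x_at read 8212, 8295 and 9257 in HeyA8 and 3920 and 3741 in HepG2, with a difference of -1.16 ± 0.10 (SE). The suffix of that probe set marks probes that may also bind other transcripts. Probe sets 214056_at, 214057_at and 200796_s_at were also called higher in HeyA8, by 2.21, 2.82 and 2.30 times. Without the HeyA8 or the HepG2 control array the call of 200796_s_at was lost (adjusted p = 0.0736 and 0.0539, limma). The sixth probe set, 227175_at, was dim at 60.1 to 112 and was not called, with an adjusted p of 0.276 from limma.

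BCL2L1, which encodes the long-lived protector BCL-XL, differed the other way on 4 of its 4 probe sets. Probe set 231228_at read 209, 119 and 141 in HeyA8 and 903 and 700 in HepG2. The HepG2 mean was 5.12 times the HeyA8 mean, with a log2 difference of 2.21 ± 0.18 (SE, adjusted p = 1.63e-05, limma). Probe set 212312_at, bright in both lines, read 1037, 1216 and 1118 in HeyA8 and 1670 and 1513 in HepG2. Its ratio was 1.42 and its log2 difference 0.50 ± 0.13 (SE, adjusted p = 0.00996, limma). The HepG2 arrays were above all HeyA8 arrays on every BCL2L1 probe set, but the size ran from 1.42 to 5.12 times, so the probe sets disagreed on how large the difference was. The remaining probe sets, 206665_s_at and 215037_s_at, gave ratios of 2.97 and 2.14. Leaving out 1 array ended 3 of these calls: 212312_at without the HeyA8 or HepG2 control (adjusted p = 0.134 and 0.133, limma), 206665_s_at without HepG2 shRNA6 (0.0632) and 215037_s_at without the HepG2 control (0.0557). Without a variance trend 212312_at also lost its call (0.0713). The call of 231228_at held under every alternative run.

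BCL2L2, which encodes the protector BCL-W, was higher in HepG2 on 1 of its 2 probe sets. Probe set 209311_at read 1573, 1661 and 1452 in HeyA8 and 2279 and 2270 in HepG2. HepG2 was 1.46 times higher, a log2 difference of 0.54 ± 0.11 (SE, adjusted p = 0.00406, limma). The dimmer 1555140_a_at lay at 79.9 to 96.2 in HeyA8 and 139 and 143 in HepG2 and was not called, with an adjusted p of 0.0862 from limma. The lines did not overlap on either probe set. Without the HepG2 shRNA6 array the call of 209311_at was lost (adjusted p = 0.081, limma), as it was without a variance trend (0.0519).

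BCL2, the founding protector of the family, was low in both lines. Probe set 203685_at read 209, 109 and 207 in HeyA8 and 24.7 and 65.7 in HepG2. HeyA8 was 3.88 times higher, a log2 difference of -1.71 ± 0.42 (SE, adjusted p = 0.00895, limma), and the shRNA4 array lay closer to HepG2 than the other HeyA8 arrays did. Probe sets 207004_at and 207005_s_at were not called, and their arrays overlapped between the lines. The fourth, 203684_s_at, was below the median of every array, at 3.12 to 48.9. BCL2 therefore rests on 1 probe set of 4, whose call was lost without the HeyA8 or the HepG2 control (-1.06 in both cases, adjusted p = 0.138 and 0.0939, limma) and without a variance trend (0.0558).

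The effectors did not pass the test between the lines. BAX, the cytosolic pore former, read 1829, 2249 and 1998 in HeyA8 and 1962 and 1868 in HepG2 on 208478_s_at. The arrays of the lines overlapped, and the log2 difference was -0.06 with a 95% interval from -0.34 to 0.21 (adjusted p = 0.705, limma). Probe set 211833_s_at gave -0.12, with an interval from -0.41 to 0.18. BAK1, the pore former that sits in the mitochondrial membrane, read 393, 494 and 288 in HeyA8 and 353 and 481 in HepG2. Its difference of 0.13 had an interval from -0.43 to 0.69 (adjusted p = 0.688, limma). These intervals leave room for differences in either direction, and the signs turned when an array was left out.

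Among the means of the 9 fitted genes, PMAIP1 had the largest line difference. Its protein NOXA binds MCL1 and promotes its breakdown. Probe set 204285_s_at read 3050, 3170 and 3421 in HeyA8 and 564 and 471 in HepG2. Probe set 204286_s_at read 2470, 2814 and 3040 in HeyA8 and 390 and 374 in HepG2. The lines were far apart on both: HeyA8 was 6.20 and 7.26 times higher, with log2 differences of -2.62 ± 0.13 and -2.80 ± 0.13 (SE, adjusted p = 6.2e-07 and 4.17e-07, limma). The RNA signals of PMAIP1 and MCL1 were thus both higher in HeyA8, and protein was not measured.

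BCL2L11, whose protein BIM can engage every protective member, was higher in HepG2. Its 6 probe sets above the array medians in both lines were all higher in HepG2 in the fit, and 4 were called. Probe set 225606_at read 181, 244 and 172 in HeyA8 and 899 and 751 in HepG2, a ratio of 4.15 and a log2 difference of 1.99 ± 0.21 (SE, adjusted p = 6.13e-05, limma). Probe set 1558143_a_at read 115, 101 and 83.9 in HeyA8 and 537 and 444 in HepG2, a ratio of 4.91. Probe set 1553096_s_at, at 409, 367 and 507 in HeyA8 and 786 and 624 in HepG2, gave a ratio of 1.65. The HepG2 arrays stood above all HeyA8 arrays on each of these, by amounts that varied with the probe set. Probe set 208536_s_at was kept only through HepG2, at 133 and 82.4 against 1.69 to 5.50, so a difference there was bound to appear, and its call is not counted here. Alternatives ended the call of 1553096_s_at without the HeyA8 control (adjusted p = 0.162, limma), the HepG2 control (0.159), HepG2 shRNA6 (0.0572) or a variance trend (0.0747), and that of 208536_s_at without the HepG2 control (0.0988). The dim 1553088_a_at and 222343_at were not called.

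BID, the link from caspase-8 to the mitochondrion, was higher in HeyA8 on 3 of its 3 probe sets. Probe set 211725_s_at read 2608, 2943 and 2682 in HeyA8 and 1683 and 1885 in HepG2, a ratio of 1.54 and a log2 difference of -0.60 ± 0.11 (SE, adjusted p = 0.00152, limma). Probe set 204493_at gave a ratio of 1.61, and lost its call without HepG2 shRNA6 (adjusted p = 0.0723, limma). Probe set 227143_s_at read 1318, 1703 and 1368 in HeyA8 and 576 and 592 in HepG2, a ratio of 2.51 and a difference of -1.28 ± 0.14 (SE). No HepG2 array reached a HeyA8 array on any of them. BMF, a BH3-only protein held on the actin skeleton, had 1 human probe set, 226530_at, which was below the median on all 5 arrays at 9.52 to 39.7 and was not fitted.

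**Figure D2:**
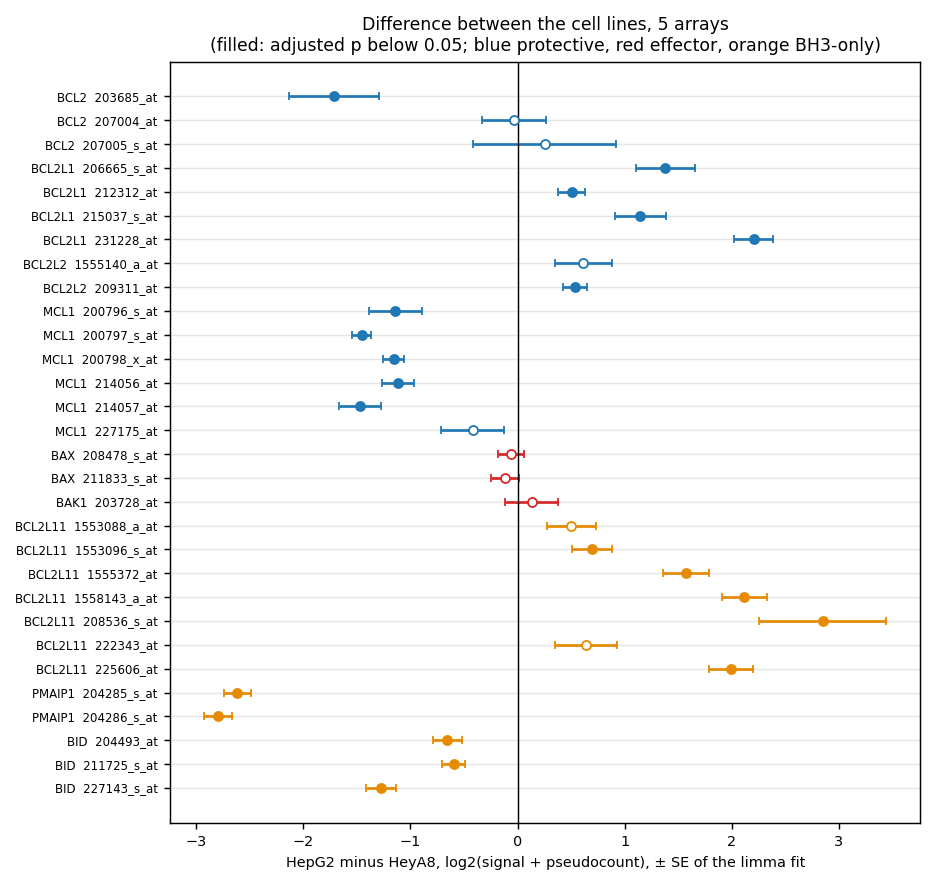
HepG2 minus HeyA8 difference (log2, with standard error) of the 30 BCL2 family probe sets in the limma fit, filled where the adjusted p passed 0.05. PMAIP1, MCL1 and BID lie left of 0 (higher in HeyA8), BCL2L1 and BCL2L11 lie right of it, and the BAX and BAK1 points lie near 0.

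No member passed the test for an effect of FAS knockdown common to both lines. Over the 5 human arrays limma called 0 of the 30 members for a common knockdown effect, and 0 of all 34288 probe sets, a share of 0%. FAS itself was not called either: its lowest adjusted p was 0.832 (215719_x_at, common effect -1.30 ± 0.16, SE, limma). The test thus could not call even the drop of its target, and the lack of called members does not show that an effect was absent. At an unadjusted p under 0.05 there were 1421 probe sets, 1 of them a member. The estimates ran from -0.52 to 0.51 on the log2 scale. The member was BCL2L1 231228_at, with -0.52 ± 0.18 (SE, adjusted p = 0.993, limma), lower than its control on 3 of 3 knockdown arrays. Its line's controls read 209 and 903 and its knockdown arrays 119, 141 and 700. The dimmer 206665_s_at was also below its control on 3 of 3, at -0.67, -0.16 and -0.38 (common effect -0.40 ± 0.28, SE), while 215037_s_at was above on 3 of 3. On the bright 212312_at the common effect had a 95% interval from -0.25 to 0.33. For MCL1 200797_s_at the interval ran from -0.34 to 0.05, and for BAX 208478_s_at from -0.18 to 0.36.

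The knockdown effect was also compared between the lines. The interaction term of limma called 0 of 30 members and 0 of 34288 probe sets, with 1580 probe sets and 1 member at an unadjusted p under 0.05. The member was MCL1 214057_at, at 955, 610 and 606 in HeyA8 and 244 and 269 in HepG2. Its ratio to its control was -0.64 with either HeyA8 hairpin and 0.14 in HepG2, a difference of 0.78 (adjusted p = 0.983, limma). The brighter MCL1 probe set 200797_s_at gave -0.22, -0.14 and -0.09 in these comparisons. MCL1 by its 6 probe sets together averaged -0.26 with shRNA4, -0.23 with shRNA6 and 0.02 in HepG2. The HeyA8 hairpins share 1 control array, so their values do not count as separate observations of it.

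**Figure D3:**
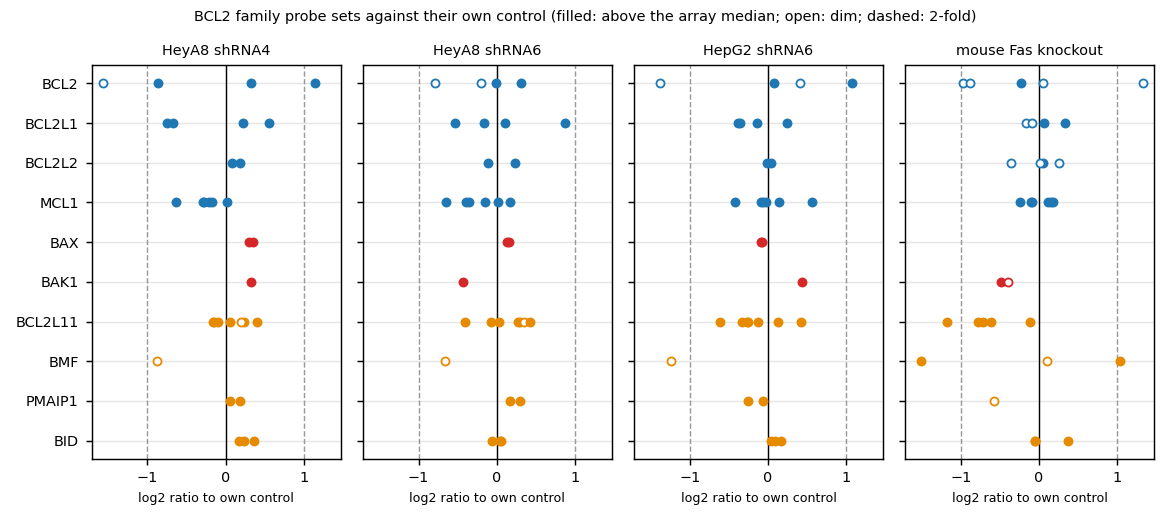
Log2 ratio of each array to its own control for every BCL2 family probe set, with the human comparisons and the mouse comparison plotted apart and pale points for probe sets below the median of both compared arrays. Human members lie mostly between -0.5 and 0.5, and in mouse liver the 5 kept Bcl2l11 probe sets, 2 of them above the median in wild type only, and 1 of 2 kept Bmf probe sets lie left of 0.

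In HeyA8 with shRNA4, 29 member probe sets were above the median on either compared array. Of these 18 were above 0 and 11 below, with a median log2 ratio of 0.08 against 0.01 for all probe sets. The only one at least 2-fold apart was BCL2 207005_s_at, at 24.7 in the control and 69.5 with shRNA4, where 5.92% of all probe sets passed that size, 2.75% higher and 3.17% lower. Killing members BAX, BAK1 and BID lay somewhat above their control: BAX at 0.30 and 0.35 on its probe sets, BAK1 at 0.32, and BID at 0.23, 0.17 and 0.37. In HeyA8 with shRNA6, 16 of 28 were above 0 and 12 below, the median was 0.04 against -0.01, and 0 passed 2-fold, where 5.06% of all probe sets did (2.22% higher, 2.85% lower). There BAX read 0.13 and 0.15, BAK1 -0.43, and BID -0.06, 0.04 and 0.05. BAK1 thus lay on opposite sides of the control with the hairpins.

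In HepG2 with shRNA6, 12 of 29 member probe sets were above the control and 17 below, with a median of -0.06 against 0.00. The only one past 2-fold was BCL2 203685_at, at 24.7 in the control and 65.7 with the hairpin, where 6.54% of all probe sets passed (3.67% higher, 2.88% lower). Both BCL2 values past 2-fold in the human lines were on probe sets kept only through the array where they were high, and the other BCL2 probe sets did not share them: 207004_at gave 0.32, 0.30 and 0.08 in the 3 human comparisons. The HepG2 log2 ratio of BAK1 was 0.43, from 353 on the control array to 481 on the shRNA6 array. BCL2L11 225606_at read -0.25 and 1553096_s_at -0.33, PMAIP1 -0.25 and -0.06, and BID 0.09, 0.16 and 0.04.

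In mouse liver the kept probe sets furthest from wild type were of the BH3-only genes Bcl2l11 and Bmf, and those of Bmf went opposite ways. By the mean of kept probe sets Bcl2l11 lay at -0.68, Bak1 at -0.48 and Bmf at -0.24. The kept probe sets of the protective genes had log2 ratios between -0.24 and 0.33. All values are 1 knockout array against 1 wild-type array, on the log2(signal + 20.5) scale. Of 33 probe sets 21 were above the median on either array, 8 above 0 and 13 below, with a median of -0.09 against -0.03 for all probe sets. Of these 17 were above the median on both arrays, 7 above 0 and 10 below. At least 2-fold higher was 1 and at least 2-fold lower 2, where 5.40% of all probe sets passed in either direction, 2.29% higher and 3.11% lower. Those 2-fold lower were Bmf 1454880_s_at and Bcl2l11 1435449_at. Bulk liver RNA does not tell fewer cells of a type from less RNA per cell.

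Bcl2l11 was lower in the Fas knockout on 3 of 3 probe sets above the median on both arrays. Probe set 1456005_a_at read 831 in wild type and 473 in the knockout, 56.9% of wild type. Probe set 1435448_at read 494 and 315, 63.8% of wild type, and 1435449_at read 309 and 125, or 40.5%. The dimmer 1426334_a_at and 1456006_at were kept only through wild type, which favoured a lower knockout value. They read 103 and 54.6, or 53.1%, and 80.0 and 72.2, or 90.2%. The log2 ratios of all 5 ran from -1.18 to -0.12, so the probe sets of Bim shared a direction but not a size, and they report on 1 gene in 1 pair of livers.

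Bmf was read by 2 kept probe sets that went opposite ways. Probe set 1454880_s_at, bright in wild type, read 628 in wild type and 207 in the knockout, 32.9% of wild type and a log2 ratio of -1.51. It was above the 75th percentile in wild type only. Probe set 1422995_at read 38.0 and 99.2, a log2 ratio of 1.03, and was kept only through the knockout. The third Bmf probe set was dim on both arrays, at 9.21 and 11.3. The direction of Bmf therefore depended on the probe set.

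Among the other killing genes of the liver, Bak1 1418991_at read 157 in wild type and 107 in the knockout, 67.9% of wild type, and its other probe set was dim. Bid, which joins Fas to mitochondria in hepatocytes, lay near wild type on its brightest probe set: 1417045_at read 643 and 619, 1448560_at read 130 and 124, and 1447873_x_at read 96.0 and 129. Pmaip1 was below the median on both arrays, at 72.2 and 41.6.

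The protective genes of the liver lay near wild type. The 6 kept Mcl1 probe sets ran from -0.24 to 0.18 on the log2 scale, and the brightest, 4666 in wild type and 4395 in the knockout, gave -0.09. Bcl2l1 1420888_at read 675 and 855, 127% of wild type, and 1420887_a_at read 87.5 and 92.4. Bcl2l2 1423572_at read 684 and 708. Bcl2 was low, with 1 of 5 probe sets above the median on either array: 1440770_at read 81 and 65.7, a log2 ratio of -0.24, and was kept only through wild type.

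**Figure D4:**
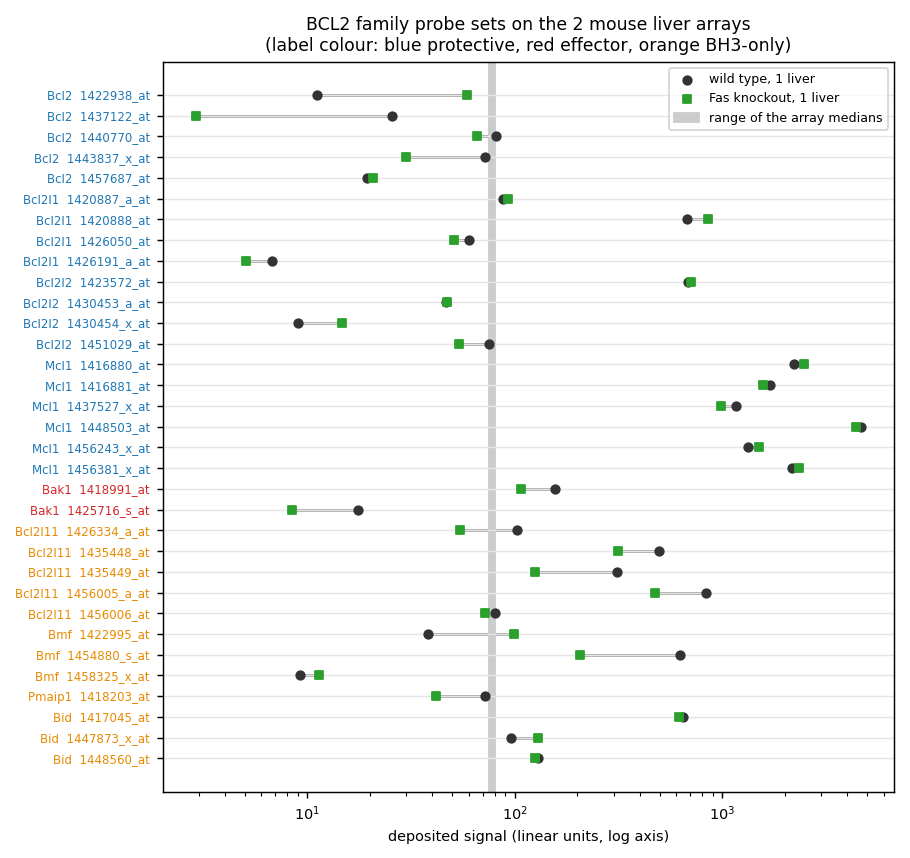
Deposited signal (linear units on a log axis) of the 33 BCL2 family probe sets on the wild-type and Fas knockout mouse liver arrays, joined by a line, with the array medians as a grey band. The bright Bcl2l11 and Bmf probe sets lie further left in the knockout, while the Mcl1, Bcl2l1, Bcl2l2 and Bid pairs lie close together except where dim.

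Markers of other liver cells also differed between the 2 mouse arrays, and their part in the Bcl2l11 and Bmf values was not tested. Of the 8 kept macrophage and Kupffer cell markers 7 were below 0 in the knockout, with a summed signal of 22007 in wild type and 17682 in the knockout. Of 8 endothelial and stellate cell markers 7 were below 0, with sums of 8794 and 7169. Des, which was above 0, was kept only through the knockout, at 57.6 and 92.8. The kept neutrophil markers were below 0 in 3 of 4, with sums of 981 and 668. Csf3r among them, at 193 and 46.9, was kept only through wild type, which favoured a lower knockout value. T and NK cell sums were 549 and 447, and B cell sums 825 and 653, with 2 kept markers each, both below 0. The defining markers Cd3e and Cd79a were below the median, at 32.4 and 41.9 and at 4.29 and 5.50. Hepatocyte markers were above 0 in 6 of 9, with sums of 265691 and 269399.

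The balance of the family was summed up as the mean log2 ratio of the protective genes minus that of the killing genes (effectors and BH3-only genes), with each gene as the mean of its kept probe sets. The error given is the spread over genes, which are not replicates. With shRNA4 in HeyA8 the protective mean was -0.02 and the killing mean 0.21, a balance of -0.24 ± 0.12. With shRNA6 the means were 0.01 and 0.01 and the balance 0.0041 ± 0.14, and the difference between the hairpins was not tested. In HepG2 the means were 0.11 and 0.03 and the balance 0.08 ± 0.19, and without BCL2, which was dim, the balance was -0.07. In mouse liver the means were 0.00345 and -0.33 and the balance 0.33 ± 0.19, without Bax and Pmaip1, and 0.22 without Bcl2l11. These means include probe sets kept only through 1 array. They were Bmf 1422995_at (1.03) through the knockout, and the only kept Bcl2 probe set (-0.24) and 2 of Bcl2l11 through wild type. On probe sets above the median on both arrays Bmf was -1.51, Bcl2l11 -0.86 and Bcl2 had none. Between the lines HepG2 stood 0.47 ± 0.88 above HeyA8: its protective mean was 0.07 and its killing mean -0.41, since PMAIP1 at -2.71 and BCL2L11 at 1.48 (1.25 without 208536_s_at) lay on opposite sides.

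**Figure D5:**
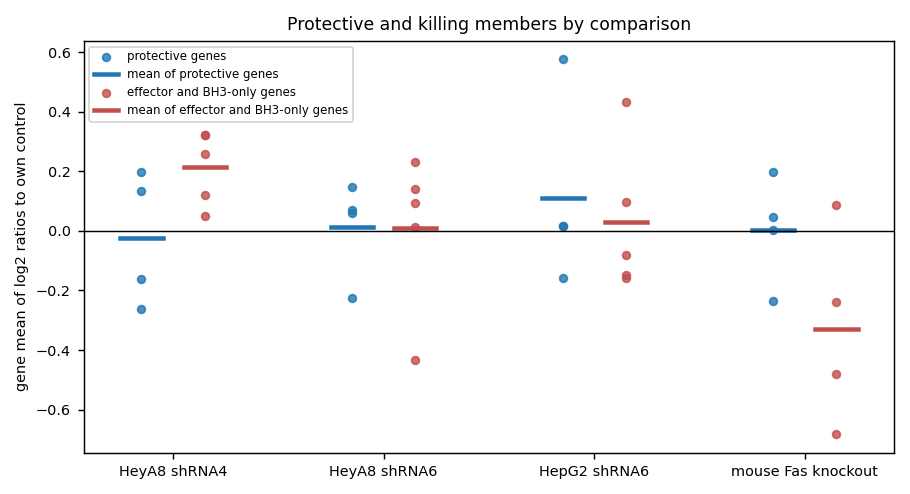
Log2 ratio of each BCL2 family gene to its own control (mean of its kept probe sets), protective genes apart from killing genes, for the 3 knockdown comparisons and for mouse liver, with the group means as lines. In mouse liver the killing mean lies at -0.33 and the protective mean at 0.00345, while in HeyA8 with shRNA4 the killing mean lies above the protective mean.

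The neighbours of the family were read through 4 lists, with 1 probe set per gene. Other BCL2 family genes had a probe set for 12 of 13, of which 9 entered the line comparison: 1 was called higher in HepG2, 3 higher in HeyA8 and 5 were not called, against 57.7% of all genes called. BCL2A1, a protector induced by NF-kB, gave the largest difference: 3508, 2363 and 4641 in HeyA8 and 36.7 and 48.6 in HepG2, a log2 difference of -5.93. BCL2A1 was below the median on both HepG2 arrays and was kept only through HeyA8, so some difference was bound to appear. It is among the 3 called higher in HeyA8, and its call carries no weight here. BCL2L13 and BNIP3L, both tied to the removal of mitochondria, were also higher in HeyA8, by -1.55 ± 0.15 and -1.41 ± 0.14 (SE), and BNIP3 was higher in HepG2 by 0.51 ± 0.11 (SE).

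With 1 probe set per gene, 57.7% of all genes were called between the lines, which is the background for the following counts. Of 11 genes of the mitochondrial death machinery 4 were called higher in HepG2 and 1 higher in HeyA8. The latter was APAF1, the scaffold on which cytochrome c activates caspase-9, at -1.20 ± 0.13 (SE). Higher in HepG2 were ENDOG, a mitochondrial nuclease, at 1.44 ± 0.18 (SE), and CASP6, an executioner caspase, at 1.11 ± 0.17 (SE). Of 5 inhibitors of apoptosis proteins 1 was higher in HepG2 and 2 in HeyA8, among them XIAP, the direct caspase inhibitor, at -0.44 ± 0.10 (SE). Of 16 regulators of the family 5 were higher in HepG2 and 4 in HeyA8. TP73, among the 5, read 6.44 to 48.3 in HeyA8, below the array medians, and 72.9 and 111 in HepG2. It was kept only through HepG2, so some difference was bound to appear, and its call carries no weight here. BAG3, a co-chaperone, and YWHAZ, a 14-3-3 protein that holds BAD, were higher in HeyA8, by -1.51 ± 0.10 and -1.34 ± 0.08 (SE). FBXW7, a ubiquitin ligase for MCL1, was also higher in HeyA8, by -1.15 ± 0.14 (SE). DDIT3 was higher in HepG2, by 1.20 ± 0.22 (SE).

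Few genes of these lists were far from their control in the knockdown comparisons. Of 9 other family genes 5 were above 0 with shRNA4 and 4 with shRNA6, and of 8 in HepG2 3 were. The genes at least 2-fold apart were BIK and HRK with shRNA4 and BIK in HepG2, singled out after their values were seen. BIK, a BH3-only protein, read 110, 252 and 54.9 in HeyA8 and 212 and 75.5 in HepG2, so it was higher with shRNA4 and lower with shRNA6 in both lines. HRK read 149, 56.4 and 110 in HeyA8. With shRNA4 it was below the array median and kept only through the control, which favoured a lower value. In the other 3 lists 0 genes passed 2-fold in any comparison, where 4.76%, 4.22% and 5.22% of all genes did in the human ones. ENDOG lay at -0.74 and -0.70 with the HeyA8 hairpins and at -0.11 in HepG2. FOXO1 and FOXO3, transcription factors with BCL2L11 among their known targets, lay at -0.50 and -0.32 with shRNA6 in HeyA8. They lay at 0.04 and 0.09 with shRNA4 and at -0.18 and 0.02 in HepG2. DYNLL2 and FBXW7 lay at -0.53 and -0.40 with shRNA6 in HeyA8, where BCL2L11 averaged 0.09. A link between these values was not tested.

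In mouse liver 8 of 9 other family genes lay below wild type, with a median of -0.13 against -0.02 for all genes, and 0 passed 2-fold, where 4.34% of all genes did. Bik was furthest, at 576 in wild type and 285 in the knockout, a log2 ratio of -0.97. The death machinery was split, with 6 of 11 above 0, and so were the regulators, with 7 of 15. Of 5 inhibitors of apoptosis proteins 4 lay below 0, Birc2 at -0.39. Among the regulators Foxo3 read 1559 and 1196, a log2 ratio of -0.38, and Bag3 read 526 and 669, at 0.34.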

How the data were processed

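Gene expression was measured in 7 samples, 5 human and 2 mouse, with 1 array per group. The authors deposited linear array intensities, and the submitters' processing notes name MAS5, with no version or settings. The number of arrays limits the precision. Control probe sets (62 human, 64 mouse) were left out. Symbols came from the platform annotation, which can be old; 41037 human probe sets matched RefSeq and 0 were renamed. Probe sets with several symbols named no gene.

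Differences were taken as log2(signal + c), c being the 25th percentile of a table, which understates those of dim probe sets. A probe set was kept where at least 1 compared array exceeded its own median, and is called bright above the 75th percentile. Single comparisons were not tested and are counted by size, at least 2-fold. With limma 3.58.1 (R 4.3.3), all 5 human arrays were fitted on cell line and knockdown (2 residual and 6.45 prior degrees of freedom), and a second fit added their interaction (1 and 5.15), with a trended prior variance, two-sided tests and Benjamini-Hochberg adjustment over all 34288 kept probe sets. The fit was tested on simulated data. Python 3.11.15 with pandas 2.3.3, numpy 2.4.6 and scipy 1.17.1 did the rest, and matplotlib 3.10.9 drew the plots.

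Members and lists were chosen with earlier results of these data known. All members were named; of each list and comparison, at most 4 genes brighter than the 75th percentile with the largest ratio, on the probe set with the highest mean signal. Alternatives were other pseudocounts, filters, scalings, fold thresholds, 1 probe set per gene, no variance trend and leaving out arrays or genes.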

Additional observations from a re-analysis of the deposited data

How the results depend on the processing

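Over 13 alternatives the count of members called between the lines ran from 7 to 21. The 7 came with 1 probe set per gene, where 9 could be called, and the range on leaving out each array was 15 to 21, with 15 without the HepG2 control. Without a variance trend it was 18. The count for a common knockdown effect was 0 in every alternative, 0 to 0 on leaving out arrays. Members past 2-fold with shRNA4 in HeyA8 were 1, then 0 with a 4 times larger pseudocount, a filter at the 75th percentile or 1 probe set per gene, 2 with no filter and 5 at 1.5-fold. With shRNA6 they were 0, and 2 at 1.5-fold. In HepG2 they were 1, then 0 with the larger pseudocount, quantile normalization, equal medians or the stricter filter, 3 with no filter and 2 at 1.5-fold. In mouse liver they were 3, then 1 with the larger pseudocount, the stricter filter or 1 probe set per gene, and 6 at 1.5-fold. Equal medians shifted all HepG2 probe sets to a median of -0.11. The mouse balance of 0.33 was 0.72 with 1 probe set per gene and 0.88 over probe sets above the 75th percentile, a setting chosen after seeing the data. These settings gave 0.22 and -0.10 in HepG2, -0.08 and -0.10 with shRNA6, and -0.33 and -0.16 with shRNA4. In mouse, Bmf 1454880_s_at and Bcl2l11 1435448_at passed the 75th percentile only through wild type, which favoured a larger balance. Bmf 1422995_at, with a log2 ratio of 1.03, was left out under both settings. On leaving out each gene, the balance ran from 0.22 to 0.47 in mouse, -0.31 to -0.16 with shRNA4, -0.11 to 0.08 with shRNA6 and -0.07 to 0.18 in HepG2. Of 9 line differences that were not called, 5 changed sign on leaving out an array. BAK1 ran from -0.15 (without HepG2 shRNA6; -0.09 without HeyA8 shRNA6) to 0.34. BCL2 207004_at ran from -0.13 to 0.10 and BCL2 207005_s_at from -0.25 to 0.36. BAX 208478_s_at ran from -0.18 to 0.0999 (0.0019 without HeyA8 shRNA4) and BAX 211833_s_at from -0.26 to 0.0771. The cause was not tested. Of the single values, 363 kept their direction and side of the threshold, 18 lost the call, 1 gained it and 6 moved. No paired analysis of replicates was possible because each group had 1 array. Cell line was a term of the fit, which sets each knockdown against the control of its own line. With 1 array per group the single comparisons allow no array to be left out, and the interaction could not be fitted without one.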
